A study of Mus musculus with 28 samples.

Results

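The genes described here are Pla2g7, Fabp5, Gpnmb, Entpd1, Hpse, Cd200r1, Cd33, Calml4, Pdzk1ip1 and Tns1, 10 of the 36806 gene entries (33411 symbols) measured in macrophages grown from the bone marrow of FVB/Hsd mice. They were chosen by name because earlier results from the same libraries showed them higher with hairpins against 3 targets. The levels that chose them are therefore given as a description, with no test. The working name of the group, lipid-handling genes higher in every knockdown, held only in part. Pla2g7, Fabp5 and Gpnmb are tied to lipid handling. Of the others, Entpd1 and Hpse encode enzymes and Cd200r1 and Cd33 receptors. Calml4 is a calmodulin-like gene, Pdzk1ip1 encodes a small membrane protein and Tns1 a cytoskeletal linker. The higher level was present in RNA enriched for newly made transcripts, and the share of older RNA in it was not measured. PolyA RNA was sequenced only for the hairpin against Wdr82, so for the other targets it was not measured. In polyA RNA of untreated cells only Cd200r1 and Tns1 were higher with that hairpin. After bacterial lipopolysaccharide Entpd1, Calml4 and Pdzk1ip1 were higher as well, and the remaining genes were not.

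Primary macrophages at day 7 of differentiation carried a retroviral hairpin and had been selected with puromycin. The hairpins were sh1137 against Wdr82, a hairpin preparation against Set1a together with Set1b, and a hairpin against Pnuts. The empty LMP vector served as control in 3 of the Wdr82 sets (unstranded, stranded and polyA), and a scrambled hairpin in the remaining sets (DRB, Set1a+Set1b, Pnuts). RNA was either polyA-selected, which samples the steady-state messenger RNA, or labelled with 4-thiouridine (4sU) for 45 min and purified through biotin, which enriches RNA made during the labelling. Cells were untreated or were stimulated with bacterial lipopolysaccharide (LPS) at 10 ng/ml for 45 min, 1 h, 2 h or 4 h, depending on the set. In the DRB set both vectors received LPS for 45 min, with or without DRB, an inhibitor of transcription elongation by RNA polymerase II. Each condition had 1 library in its set, 28 libraries in 6 tables, with 24 libraries of 4sU RNA and 4 of polyA RNA. No source used here says whether the sets came from separate mice.

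Macrophages take up lipids, oxidized lipoproteins and dying cells, and break them down in lysosomes. Lipid-laden macrophages are known for high levels of secreted phospholipases, fatty acid binding proteins and lysosomal membrane glycoproteins. WDR82 is a subunit of the SET1A and SET1B histone H3 lysine 4 methyltransferase complexes and also of a protein phosphatase 1 complex organised by PNUTS, the product of Ppp1r10, which acts in transcription termination.

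The hairpin targets bear on the labels. Wdr82 was lower with sh1137 in 10 of 10 Wdr82 pairs, with log2 ratios between -2.23 and -0.72. Ppp1r10 was higher, not lower, in both libraries labelled Pnuts hairpin, with log2 ratios of 0.68 and 0.70. It was also higher with sh1137 in the Wdr82 pairs, with log2 ratios between 0.72 and 1.60. In the Set1a+Set1b libraries the log2 ratios were -0.11 and -0.40 for Setd1a and 0.06 and -0.58 for Setd1b. The Pnuts and Set1a+Set1b sets hold 4sU RNA only, so the level of their targets in polyA RNA was not measured. Their libraries are accordingly called the libraries labelled Pnuts and Set1a+Set1b. A library held 11466 to 13544 genes of at least 1 FPKM, and all 280 values of the 10 genes had the status OK. Read counts are not part of the tables, and the sequencing depth behind a value is therefore unknown. FPKM counts fragments per kilobase of transcript, scaled by library size, a share of a library, so a change in the total amount of RNA is not visible in it. Of 7 macrophage markers in the tables, none was under 1 FPKM in every library.

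Levels are FPKM, and a ratio is log2((FPKM + 1)/(FPKM + 1)) between 2 libraries of one table, which understates the change of low genes. The 6 tables were normalized separately, so levels from different tables are set side by side only as a description. A gene was tested in a pair of libraries when it reached 1 FPKM in either, and called past a 2-fold ratio. All 10 genes were tested in each knockdown pair. In 12 of the 120 gene-pair combinations of 4sU RNA the control was under 1 FPKM, so that the gene passed through the hairpin library alone. These were 5 pairs for Calml4, 6 for Pdzk1ip1 and 1 for Tns1.

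Across the 12 pairs of 4sU libraries the ratio of hairpin to control was above 0 in 119 of 120 gene-pair combinations and at least 2-fold in 90. Over all genes 5.28% of combinations were at least 2-fold higher, and the share above 0 in single pairs was not counted. In the 2 polyA pairs it was above 0 in 7 of 20 combinations, at least 2-fold higher in 0 and at least 2-fold lower in 2. Among 10827 genes tested in all 12 4sU pairs, 609 (5.62%) were above 0 in each, and 9 of the 10 genes were among them. The exception was Cd33, with a ratio of -0.33 after 4 h of LPS in the unstranded set. In the 8 Wdr82 pairs alone, without the libraries labelled Pnuts and Set1a+Set1b, 57 of 80 combinations were at least 2-fold higher. The share of all genes in these pairs was 3.71 to 7.8%. In the 6 4sU pairs with a scrambled control 45 of 60 combinations were at least 2-fold higher, where the share of all genes was 2.52 to 6.38%. Because the genes were picked for this contrast, these counts restate the choice.

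**Figure D1:**
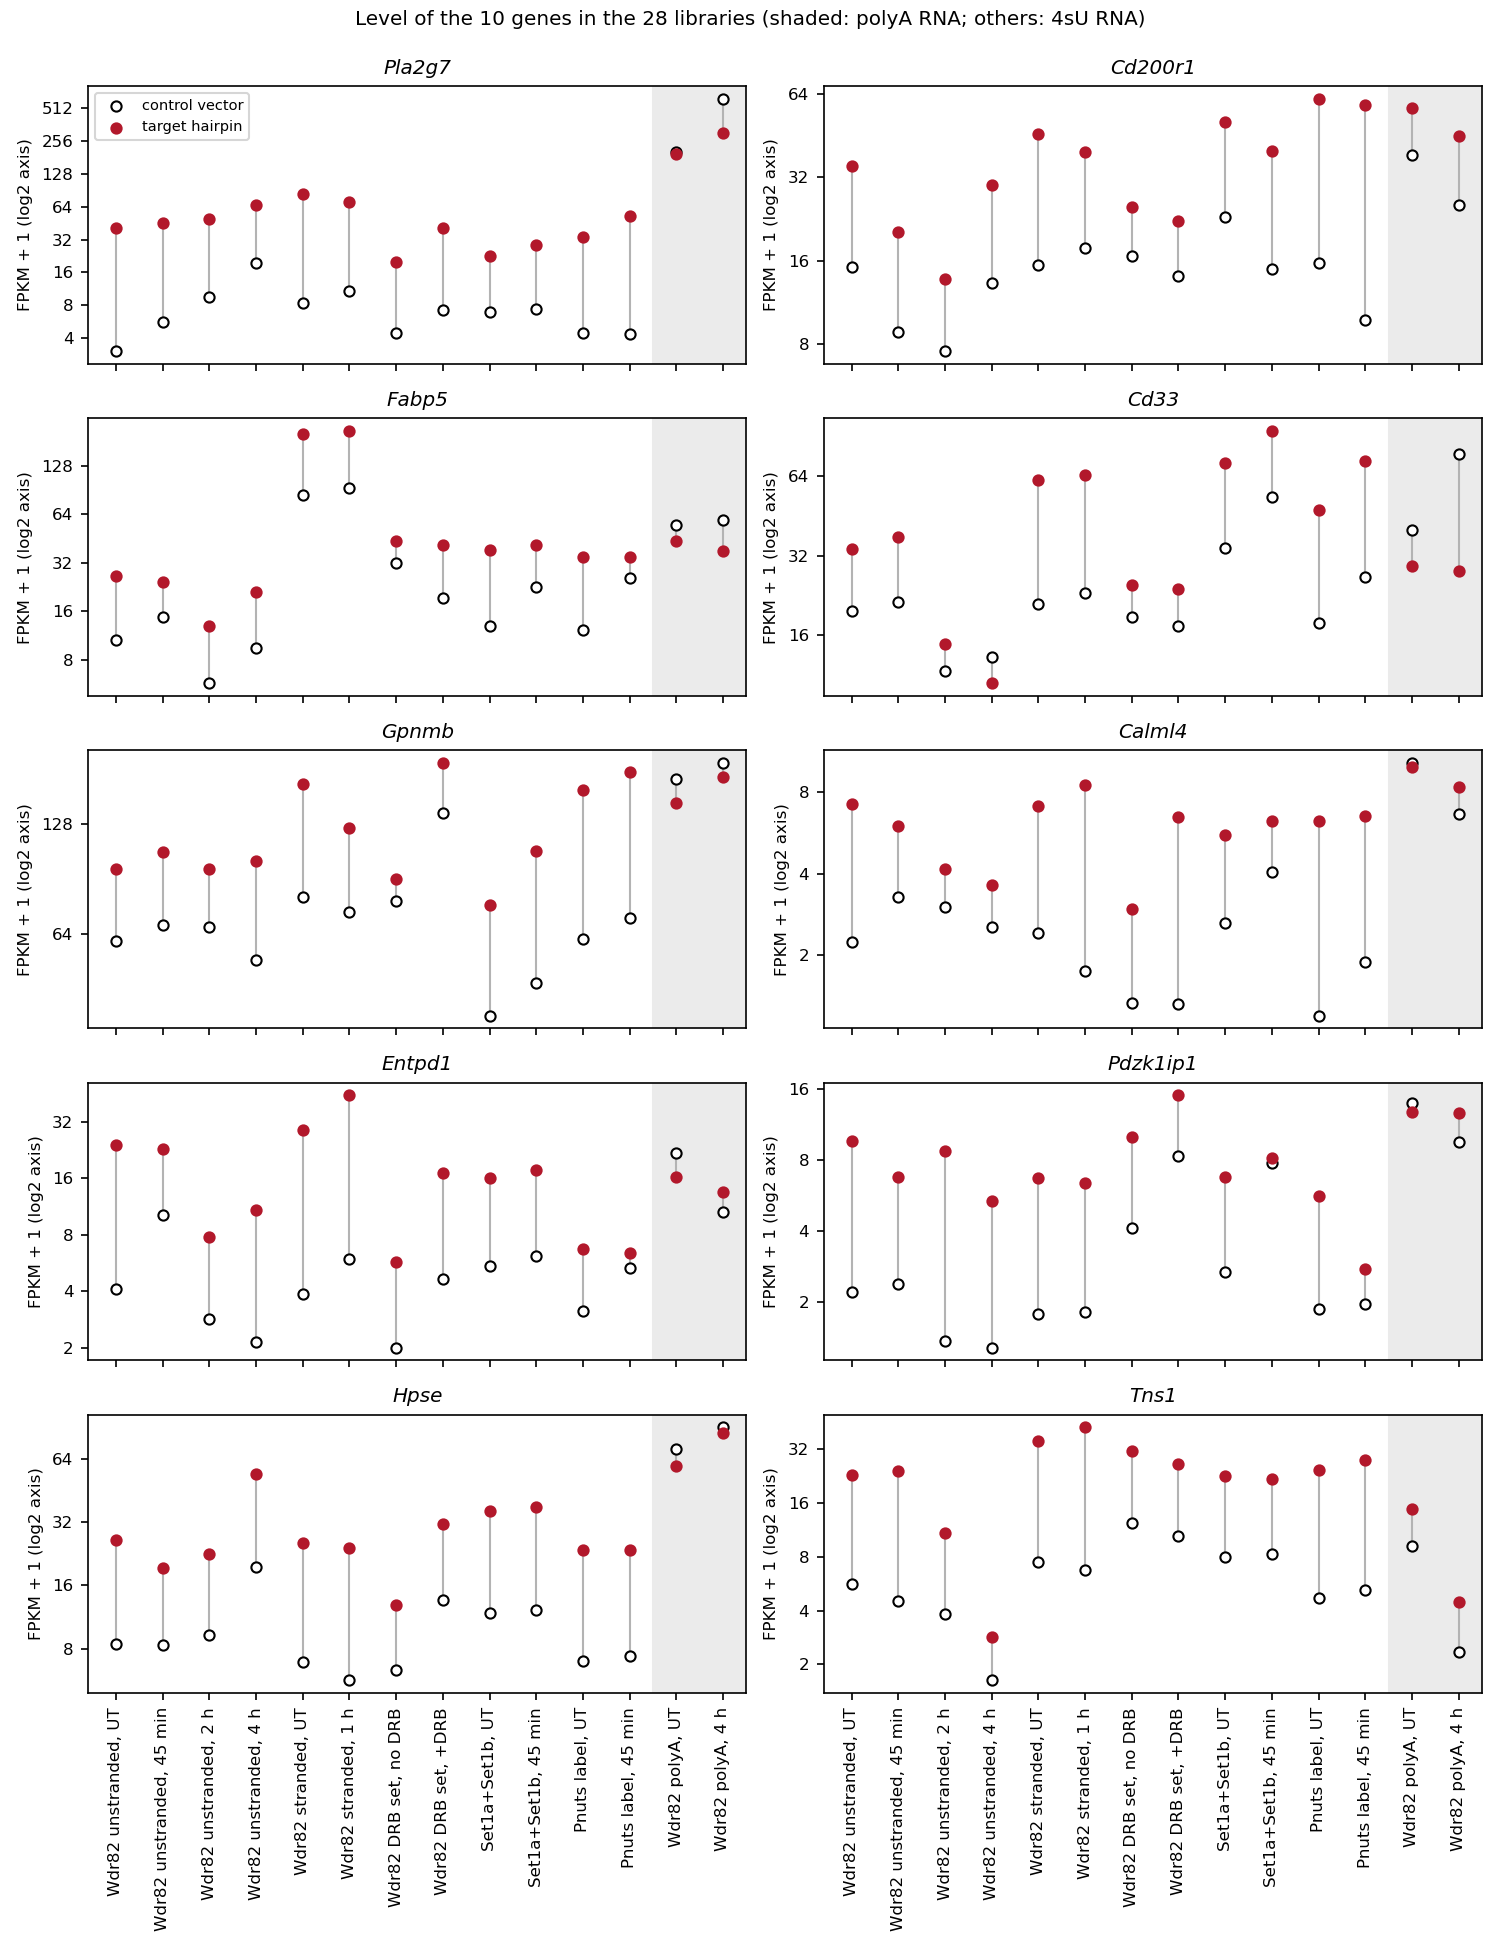
FPKM + 1 on a log2 axis for each of the 10 genes (one panel each) in the 14 pairs of libraries along the horizontal axis, with open circles for the control vector, red circles for the target hairpin, grey lines joining a pair and shading for polyA RNA; each circle is 1 library. The red circle lies above the open one in 119 of 120 unshaded combinations and in 7 of 20 shaded ones.

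Pla2g7 (ENSMUSG00000023913, mm9 chromosome 17, 43705047 to 43749150) encodes the secreted platelet-activating factor acetylhydrolase, also called lipoprotein-associated phospholipase A2, which cleaves oxidized phospholipids. In untreated cells its 4sU level was 2.03 with the empty vector and 39.8 with sh1137 in the unstranded set, and 7.46 and 83.2 in the stranded set. With the scrambled control it was 5.94 and 21.5 in the Set1a+Set1b set and 3.50 and 32.9 in the set labelled Pnuts. After LPS in the unstranded set the control and hairpin levels were 4.57 and 44.8 at 45 min, 8.61 and 48.2 at 2 h, and 18.7 and 65.5 at 4 h. The lowest hairpin library (19.0) lay above the highest control library (18.7), so the 12 control and 12 hairpin libraries of 4sU RNA, from separately normalized tables, did not overlap. The same held for 9 of 10827 genes (0.0831%), and for Pla2g7 it partly restates the choice of the gene. The ratio over the 12 pairs ran from 1.70 to 3.75, with a mean of 2.64, the second highest among 10827 genes. In polyA RNA the order was not the same: Pla2g7 was at 200.6 in the control and 192 with sh1137 in untreated cells, and at 624 and 305 after 4 h of LPS, ratios of -0.06 and -1.03. The Pla2g7 locus as deposited also holds 1700071M16Rik, whose reads cannot be told apart from it in unstranded libraries where the genes overlap.

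Fabp5 (ENSMUSG00000027533, chromosome 3, 10012548 to 10016607) encodes the epidermal fatty acid binding protein, a cytosolic carrier of fatty acids that is also found in macrophages. Its 4sU control levels ran from 4.71 to 91.8 with a median of 16.1, and its hairpin levels from 11.9 to 210 with a median of 35.5. The stranded Wdr82 set stood apart from the rest, at 83.0 and 201 in untreated cells and 91.8 and 210 after 1 h of LPS, so that the groups overlapped across sets although each hairpin library was above its own control. The ratio was between 0.43 and 1.55 in the 12 4sU pairs and at least 2-fold in 8. In untreated polyA RNA the Fabp5 level was 53.9 in the control and 42.4 with sh1137, against 57.6 and 36.8 when LPS had been given for 4 h, lower with sh1137 in both pairs. Fabp5 has processed copies in the mouse genome, and how shared reads were assigned is not given in the sources used here.

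Gpnmb (ENSMUSG00000029816, chromosome 6, 48986517 to 49020928) encodes a transmembrane glycoprotein of lysosomes and phagosomes that is abundant in lipid-laden macrophages and in osteoclasts. It was the most abundant of the 10 genes in 4sU RNA, with a median of 66.1 in controls (37.1 to 136) and 107 with hairpins (75.7 to 187). Its ratio was above 0 in 12 of 12 pairs but small, from 0.20 to 1.36, and reached 2-fold in 5. Those 5 pairs were untreated cells of the stranded Wdr82 set and both pairs each of the sets labelled Set1a+Set1b and Pnuts. In polyA RNA Gpnmb was at 169 and 145 in untreated cells and at 187 and 171 after LPS, ratios of -0.22 and -0.12.

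The enzyme genes Entpd1 and Hpse differed in how far they varied. Entpd1 (ENSMUSG00000048120, chromosome 19, 40686856 to 40816092) encodes CD39, which hydrolyses extracellular ATP and ADP. Its 4sU level in untreated cells was 3.09 and 23.0 in the unstranded set, 2.88 and 28.1 in the stranded set, 4.46 and 15.1 in the Set1a+Set1b set and 2.15 and 5.75 in the set labelled Pnuts. It was at least 2-fold higher in 11 of 12 4sU pairs, the exception being LPS-treated cells labelled Pnuts, at 4.35 and 5.41. In polyA RNA Entpd1 was at 20.8 and 15.2 in untreated cells and at 9.57 and 12.6 after 4 h of LPS. The deposited Entpd1 locus also holds Gm16027 and Gm8783.

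Hpse (ENSMUSG00000035273, chromosome 5, 101108503 to 101148735) encodes heparanase, an endoglycosidase that cuts heparan sulfate chains. Its 4sU level was 7.44 and 25.4 in untreated cells of the unstranded set, 5.94 and 24.5 in the stranded set, 10.8 and 35.0 in the Set1a+Set1b set and 5.97 and 22.5 in the set labelled Pnuts. The Hpse ratio was the steadiest of the 10, with a standard deviation of 0.31 over the 12 pairs around a mean of 1.54, and was at least 2-fold in each. Pla2g7 and Hpse were among 6 genes of 10827 that reached 2-fold in all 12 4sU pairs. In polyA RNA Hpse was at 70.4 and 58.5 in untreated cells and at 89.6 and 83.7 after LPS, ratios of -0.26 and -0.10.

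The 2 receptor genes were Cd200r1 and Cd33. Cd200r1 (ENSMUSG00000022667, chromosome 16, 44765849 to 44795091) encodes the receptor for CD200, which restrains macrophage activation. Its 4sU level in untreated cells was 14.2 and 34.0 in the unstranded set, 14.4 and 44.8 in the stranded set, 22.1 and 49.9 in the Set1a+Set1b set and 14.7 and 60.7 in the set labelled Pnuts. The highest Cd200r1 ratio, 2.59, was in LPS-treated cells labelled Pnuts, at 8.72 and 57.7. Cd200r1 and Tns1 were the 2 genes that were also above 0 in both polyA pairs. Cd200r1 was at 37.6 and 56.3 in untreated polyA RNA and at 24.4 and 44.1 after LPS, ratios of 0.57 and 0.83. Cd200r1 belongs to a family of similar genes, and the assignment of shared reads is not given.

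Cd33 (ENSMUSG00000004609, chromosome 7, 50782826 to 50788541) encodes a sialic acid-binding lectin of the Siglec family. In untreated cells its 4sU level was 18.8 and 32.8 in the unstranded set, 19.9 and 61.2 in the stranded set, 33.1 and 71.1 in the Set1a+Set1b set and 16.7 and 46.8 in the set labelled Pnuts. After 4 h of LPS in the unstranded set it was 12.1 and 9.42, the one 4sU pair in which the hairpin library was lower. In polyA RNA Cd33 was at 39.0 and 28.1 in untreated cells and at 76.9 and 27.0 after LPS, a ratio of -1.48 and the lowest of the 140 gene-pair combinations.

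Calml4 (ENSMUSG00000032246, chromosome 9, 62686592 to 62723725), a calmodulin-like gene, had the lowest single control value, with 4sU levels from 0.187 to 3.04 (median 1.33) against 1.96 to 7.50 (median 5.29) with hairpins. Its deposited locus also holds Cln6 and Gm10653, so reads in unstranded libraries may come from more than 1 gene. Pdzk1ip1 (ENSMUSG00000028716, chromosome 4, 114761313 to 114766504) encodes MAP17, a small membrane protein that binds PDZ domains. Its 4sU level was 0.283 to 7.32 in controls (median 1.09) and 1.77 to 14.0 with hairpins (median 5.75), and the pair from LPS-treated Set1a+Set1b cells was nearly level, at 6.77 and 7.15. In polyA RNA both genes lay within 1.5-fold of their controls, with ratios of -0.05 and 0.34 for Calml4 and -0.13 and 0.41 for Pdzk1ip1.

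Tns1 (ENSMUSG00000055322, chromosome 1, 73956805 to 74171021) encodes tensin 1, which links integrins to the actin cytoskeleton. In untreated cells its 4sU level was 4.64 and 22.0 in the unstranded set, 6.50 and 34.7 in the stranded set, 7.01 and 21.7 in the Set1a+Set1b set and 3.67 and 23.6 in the set labelled Pnuts. Its ratio was at least 2-fold in 11 of 12 4sU pairs, the exception being 4 h of LPS at 0.635 and 1.86. In polyA RNA Tns1 was at 8.20 and 13.8 in untreated cells and at 1.36 and 3.48 after LPS, the largest polyA ratios of the 10 genes at 0.68 and 0.93.

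Promoter sequences are shown because the genes were higher together, to let a reader compare what lies before their start sites. RefSeq windows of GRCm38.p6, a build other than the mm9 of the deposited tables, covering the 250 bases before the start, were found for 8 of the 10 genes in 9 windows, with no entry for Fabp5 and Cd200r1. Pla2g7 (chr17:43568201-43568450, plus strand) and Hpse (chr5:100719717-100719966, minus strand) are shown because they reached 2-fold in all 12 4sU pairs. Entpd1 window 2 (chr19:40659520-40659769, plus strand) and Cd33 (chr7:43533172-43533421, minus strand) are shown because they hold GAGGAA. Capitals mark GAGGAA, letters found in sites bound by the ETS factor PU.1, or its reverse complement. The shorter GGAA that ETS sites share was neither marked nor counted.
Pla2g7: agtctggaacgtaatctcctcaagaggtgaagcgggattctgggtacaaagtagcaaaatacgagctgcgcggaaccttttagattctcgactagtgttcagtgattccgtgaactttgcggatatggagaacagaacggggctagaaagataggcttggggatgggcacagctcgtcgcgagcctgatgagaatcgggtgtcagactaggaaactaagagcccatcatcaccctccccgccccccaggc
Hpse: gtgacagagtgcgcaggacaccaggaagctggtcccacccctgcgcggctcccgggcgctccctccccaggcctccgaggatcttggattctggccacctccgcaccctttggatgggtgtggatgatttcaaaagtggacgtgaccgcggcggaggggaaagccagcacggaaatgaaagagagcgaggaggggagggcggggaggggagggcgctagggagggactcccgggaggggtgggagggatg
Entpd1 window 2: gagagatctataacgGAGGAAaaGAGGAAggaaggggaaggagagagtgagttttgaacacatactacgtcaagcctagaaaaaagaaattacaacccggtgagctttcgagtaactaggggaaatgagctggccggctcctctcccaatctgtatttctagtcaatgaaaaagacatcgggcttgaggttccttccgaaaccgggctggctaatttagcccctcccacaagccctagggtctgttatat
Cd33: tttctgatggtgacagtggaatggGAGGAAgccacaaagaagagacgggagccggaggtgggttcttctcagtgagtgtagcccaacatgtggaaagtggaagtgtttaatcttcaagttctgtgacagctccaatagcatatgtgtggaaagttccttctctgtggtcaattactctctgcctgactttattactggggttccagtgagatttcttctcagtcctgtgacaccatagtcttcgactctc

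GAGGAA on either strand was in 4 of the 9 windows (Entpd1 window 2, Cd33, Calml4 and Pdzk1ip1) and in 23.3% of 32851 windows of all genes. The E-box CACGTG, which MiT family factors bind, was in 1 window (Pdzk1ip1) against 6.02%, and CATGTG, the core of the M-box, in 1 (Cd33) against 12.3%. The AP-1 letters TGANTCA were in 0 of 9 against 6.75% of all windows, and TATAAA in 0 of 9 against 12.4%. Each motif was counted separately. A match is a description of letters, and no match says only that these letters are not in this window. GC content ranged from 46.8% for Cd33 to 74.4% for Tns1, where the median of all windows was 52.4%.

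**Figure D2:**
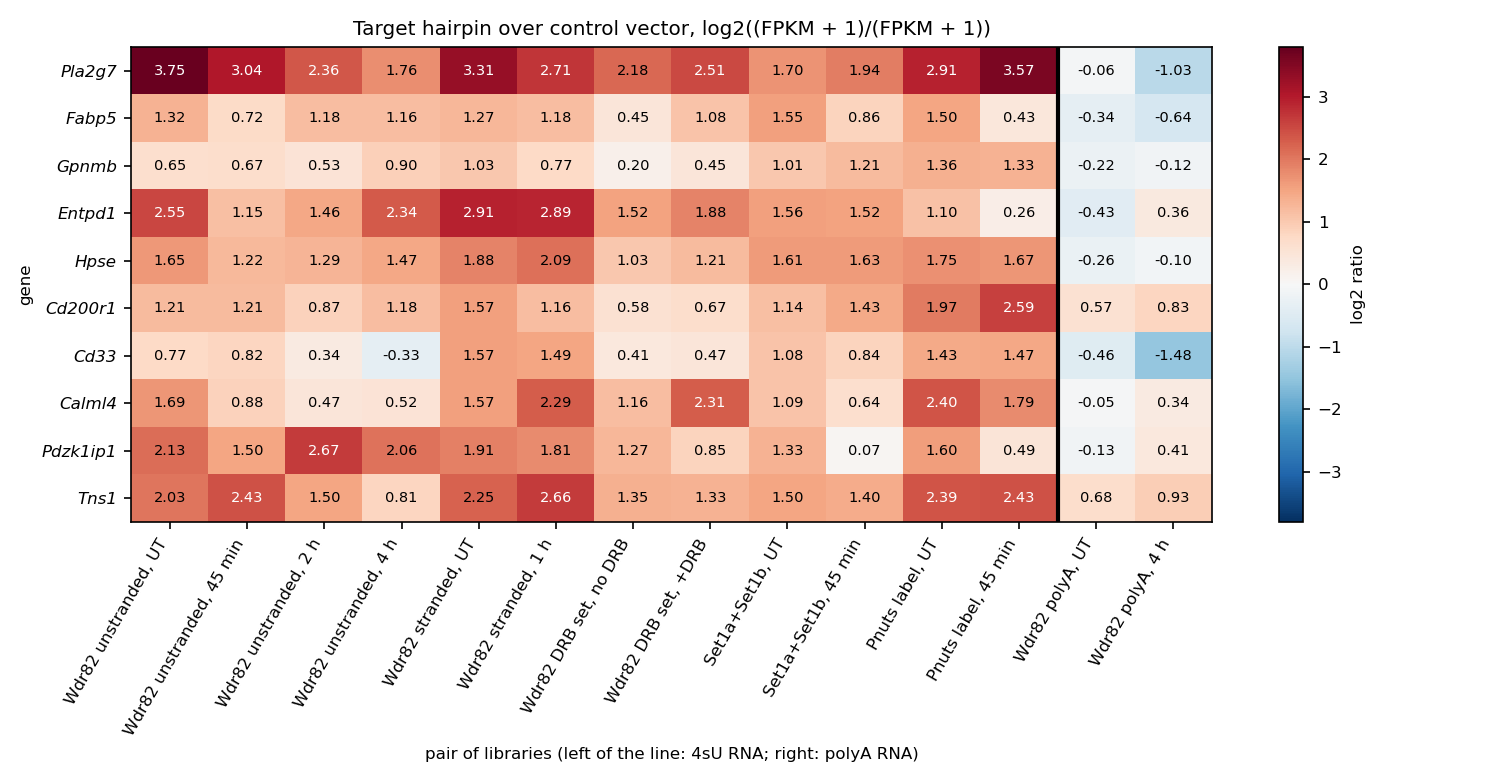
Log2 ratio of target hairpin over control vector, with FPKM + 1 in both, for each of the 10 genes (rows) in the 14 pairs of libraries (columns), printed in each cell and coloured from blue (lower with the hairpin) to red (higher). Of the cells left of the line (4sU RNA) 119 of 120 are above 0, and right of the line (polyA RNA) 7 of 20 are.

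The size of the 4sU ratio differed more between genes than the order of neighbouring genes allows to be resolved. The mean over the 12 pairs was 2.64 for Pla2g7 (SD 0.69), 1.84 for Tns1 (SD 0.59), 1.76 for Entpd1 (SD 0.79) and 1.54 for Hpse (SD 0.31). It was 1.48 for Pdzk1ip1 (SD 0.73), 1.40 for Calml4 (SD 0.71), 1.30 for Cd200r1 (SD 0.55) and 1.06 for Fabp5 (SD 0.37). It was lowest for Cd33 at 0.87 (SD 0.58) and Gpnmb at 0.84 (SD 0.36). The SD is over pairs of different sets and treatments, which are not replicates of 1 condition. Each step from one gene to the next in this order was smaller than both SDs, apart from the step from Pla2g7 to Tns1.

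For some genes the values differed by hairpin. Pla2g7 had a mean ratio of 2.70 in the 8 Wdr82 pairs of 4sU RNA, 1.82 in the 2 Set1a+Set1b pairs and 3.24 in the 2 pairs labelled Pnuts. Cd200r1 was highest in the pairs labelled Pnuts, at 2.28 against 1.06 for Wdr82 and 1.29 for Set1a+Set1b. Entpd1 had the opposite order, at 2.09 for Wdr82, 1.54 for Set1a+Set1b and 0.68 for the pairs labelled Pnuts. The Set1a+Set1b hairpins and the hairpin labelled Pnuts had 2 pairs each, at different times, and these differences were not tested.

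The number of the 10 genes that were at least 2-fold higher is given with the share of all tested genes that were. In untreated cells it was 8 of 10 in the unstranded Wdr82 set (all genes 4.66%), 10 in the stranded set (6.79%), 10 in the Set1a+Set1b set (2.52%) and 10 in the set labelled Pnuts (3.36%). Gpnmb and Cd33 were the pair that missed 2-fold in the unstranded set. After LPS in the unstranded set it was 6 at 45 min (7.8%), 6 at 2 h (6.37%) and 6 at 4 h (6.47%). It was 9 at 1 h in the stranded set (7.34%), 6 in the Set1a+Set1b set (3.44%) and 7 in the set labelled Pnuts (6.38%). In the DRB set it was 6 without DRB (3.71%) and 6 with DRB (3.99%). In polyA RNA it was 0 in untreated cells (2.83%) and 0 after 4 h (3.55%), while 2 genes, Pla2g7 and Cd33, were at least 2-fold lower after 4 h (2.81%) and none was in untreated cells (2.56%). The median over the 10 genes lay between 1.10 and 1.95 in the 12 4sU pairs, where the median of all genes lay between -0.03 and 0.09. It was -0.17 and 0.12 in the polyA pairs, where the median of all genes was -0.05 and -0.10. The confidence bounds that the authors deposited with each FPKM, at a level not given in the sources used here, lay apart with the hairpin higher in 29 of the 120 4sU combinations, 9 of them for Pla2g7 and 6 for Hpse, and in 1200 of 159394 combinations of all genes (0.753%). Macrophage markers were also lower with sh1137 in polyA RNA, at least 2-fold in 3 of 7 in untreated cells and 4 of 7 after LPS (medians -0.74 and -1.19), with summed levels between 3309 and 7382 in the controls and between 1832 and 3085 with sh1137. Their part in the polyA levels of the 10 genes was not tested.

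In control macrophages 7 of the 10 genes were in the top 10% of all genes by their polyA level relative to their 4sU level. The control 4sU level is also the denominator of the hairpin ratio that chose the genes, so a high value follows in part from the choice and is given as a description. Among 8434 genes with at least 5 FPKM in polyA RNA and 1 FPKM in 4sU RNA of untreated controls, the log2 ratio of the polyA level to the mean of the 4 4sU levels was 5.14 for Pla2g7, at percentile 99.9. The percentile was 99.5 for Hpse, 99.3 for Pdzk1ip1, 98.8 for Entpd1, 98.5 for Calml4, 94.3 for Gpnmb and 90.2 for Cd200r1. Fabp5 (84.7), Cd33 (82.6) and Tns1 (73.7) were below the top 10%. The ratio sets levels of separately normalized tables beside each other and was computed after the data had been seen.

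Across all genes, those in the top 10% of this ratio had the highest median hairpin ratio in 12 of 12 4sU pairs, between 0.07 and 0.37, against -0.07 to 0.05 in group 5 when all genes were split into 10 groups by the ratio. Between 5.15 and 18.3% of the top group were at least 2-fold higher, against 0.238 to 2.97% in group 5. The share at least 2-fold lower was not counted, and the top group includes 5 to 7 of the 10 genes themselves. The 4sU control of the pair itself was left out when its genes were ranked. The part of this ratio in the hairpin result of the 10 genes was not tested. Of 583 genes that were above 0 in all 12 4sU pairs and tested in polyA RNA, 44.4% were above 0 in untreated polyA RNA and 54.4% after 4 h of LPS.

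**Figure D3:**
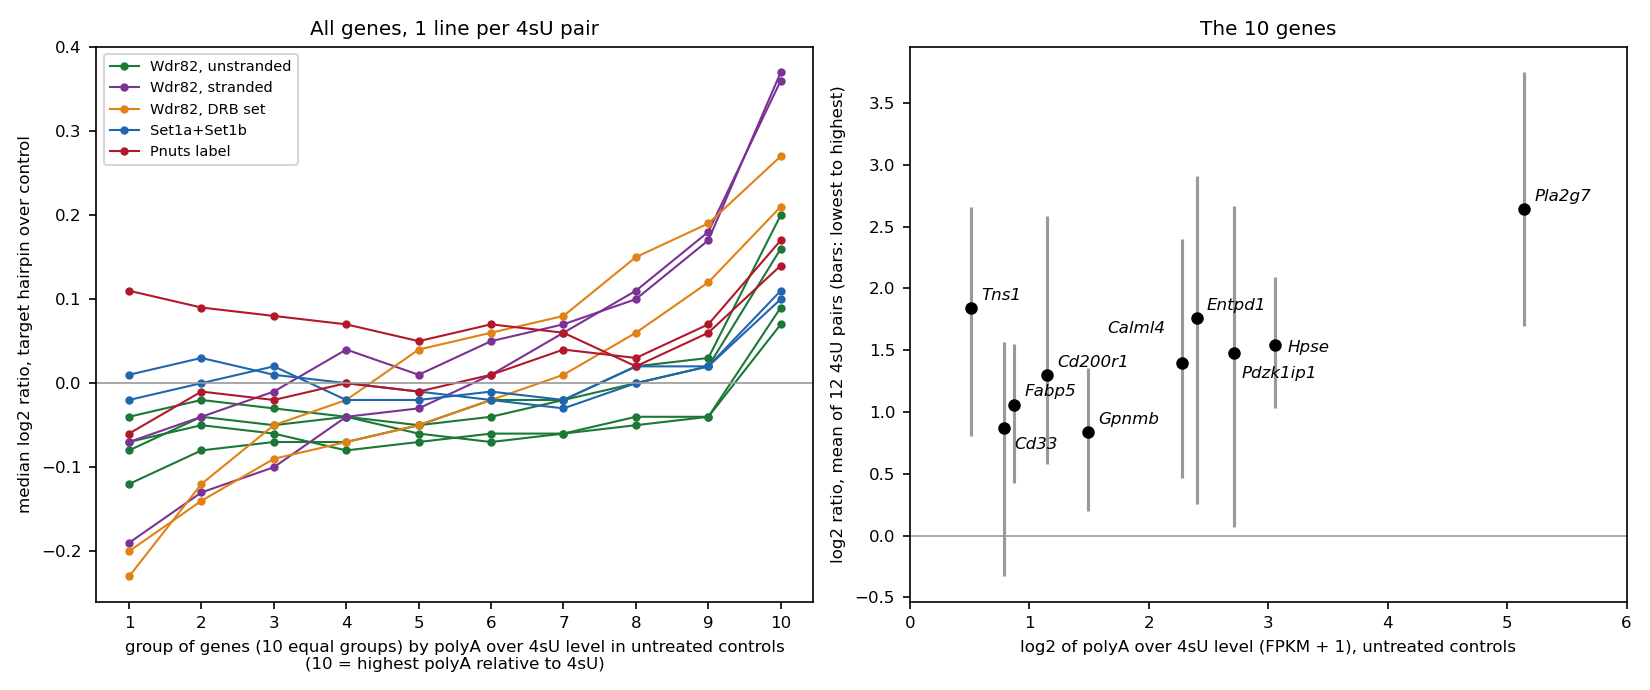
Left, the median log2 ratio of hairpin over control (vertical axis) for all genes split into 10 groups by their polyA over 4sU level in untreated controls (horizontal axis), with 1 line per 4sU pair coloured by set; right, each of the 10 genes by its log2 polyA over 4sU level (horizontal) and its mean log2 hairpin ratio over 12 4sU pairs (vertical, bars from the lowest to the highest pair). Every line is highest in group 10, between 0.07 and 0.37, and Pla2g7 lies at 5.14 and 2.64.

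The response to LPS was not used to choose the genes, but the LPS ratios use the same libraries as the hairpin ratios. For 45 min of LPS, 3 sets held an untreated and a treated control, and limma was fitted over the 3 ratios with 2 residual degrees of freedom and Benjamini-Hochberg adjustment over 14263 genes. Of these, 1721 (12.1%) had an adjusted p under 0.05, 978 (6.86%) higher and 743 (5.21%) lower. Of the 10 genes 3 did, 2 higher and 1 lower. Cd200r1 fell, with ratios of -0.78, -0.64 and -0.69 in the unstranded, Set1a+Set1b and Pnuts sets (mean -0.70, SE 0.08, limma adjusted p = 0.0225, lower in 3 of 3 sets). Calml4 rose, with ratios of 0.55, 0.62 and 0.66 (mean 0.61, SE 0.08, limma adjusted p = 0.0276, higher in 3 of 3 sets). In the Pnuts set its control levels were 0.187 untreated and 0.882 with LPS, both under 1 FPKM. It was kept there because the limma filter asked for 1 FPKM in any library fitted. The deposited lower bound of Calml4 was 0 in each of the control libraries fitted. Fabp5 rose, with ratios of 0.47, 0.80 and 1.06 (mean 0.78, SE 0.14, limma adjusted p = 0.0495, higher in 3 of 3 sets). The Fabp5 call was lost with a pseudocount of 0.1 (limma adjusted p = 0.0736), with no filter (0.0649) and with centring (0.0571), and the Calml4 call with a pseudocount of 0.1 (0.0895). Over all alternatives in control cells the limma adjusted p ran from 0.0304 to 0.185 for Fabp5 and from 0.0119 to 0.124 for Cd200r1. Calml4 was not tested with the filter at 5 FPKM, and over the other alternatives its limma adjusted p ran from 0.0272 to 0.146. With any one of the 3 sets left out, 0 of the 10 genes were called by limma, and 4 had an unadjusted p under 0.05 without the unstranded set (all genes 24.9%), 4 without the Set1a+Set1b set (22.3%) and 3 without the Pnuts set (24.6%). Without the Pnuts set 0 of 14025 genes were called, although 1926 were higher and 1530 lower at an unadjusted p under 0.05.

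The other 7 genes did not pass at 45 min in controls. Entpd1 (mean 0.75, SE 0.25) and Cd33 (mean 0.44, SE 0.14) were above 0 in 3 of 3 sets, with limma adjusted p-values of 0.131 and 0.126. Pla2g7 had ratios of 0.88, 0.10 and -0.04, and Hpse stayed between -0.03 and 0.08. The 3 hairpin pairs hold 3 different hairpins with 1 library per condition, so they are not replicates of 1 condition. Their limma fit is given as a description. Of the 10 genes none had a limma adjusted p under 0.05 in these pairs. Of all 15016 genes 824 (5.49%) were higher and 441 (2.94%) lower. At an unadjusted limma p under 0.05 there were 2 of 10 in the hairpin pairs, near the 30.3% of all genes. They were Pla2g7 (mean 0.38, SE 0.13) and Cd33 (mean 0.39, SE 0.13). Fabp5 and Calml4 both had a mean of -0.01 there, with SEs of 0.10 and 0.13. The difference between control and hairpin cells was not tested with 3 sets that each hold 1 library per condition.

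Later times had 1 pair of libraries each, so they have no test. Pla2g7 climbed through the course in control cells, from 2.03 to 4.57, 8.61 and 18.7 in unstranded 4sU RNA, a ratio of 2.70 at 4 h. With sh1137 it started at 39.8 and reached 65.5, a ratio of 0.71. In polyA RNA Pla2g7 went from 200.6 to 624 in controls and from 192 to 305 with sh1137. Hpse in controls was level until 2 h (7.44, 7.29 and 8.29) and 18.6 at 4 h, a ratio of 1.22. With sh1137 it was 25.4, 18.3 and 21.6 and then 53.5, a ratio of 1.04. Tns1 moved the other way, from 4.64 to 0.635 in controls and from 22.0 to 1.86 with sh1137 at 4 h, and from 8.20 to 1.36 and from 13.8 to 3.48 in polyA RNA.

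**Figure D4:**
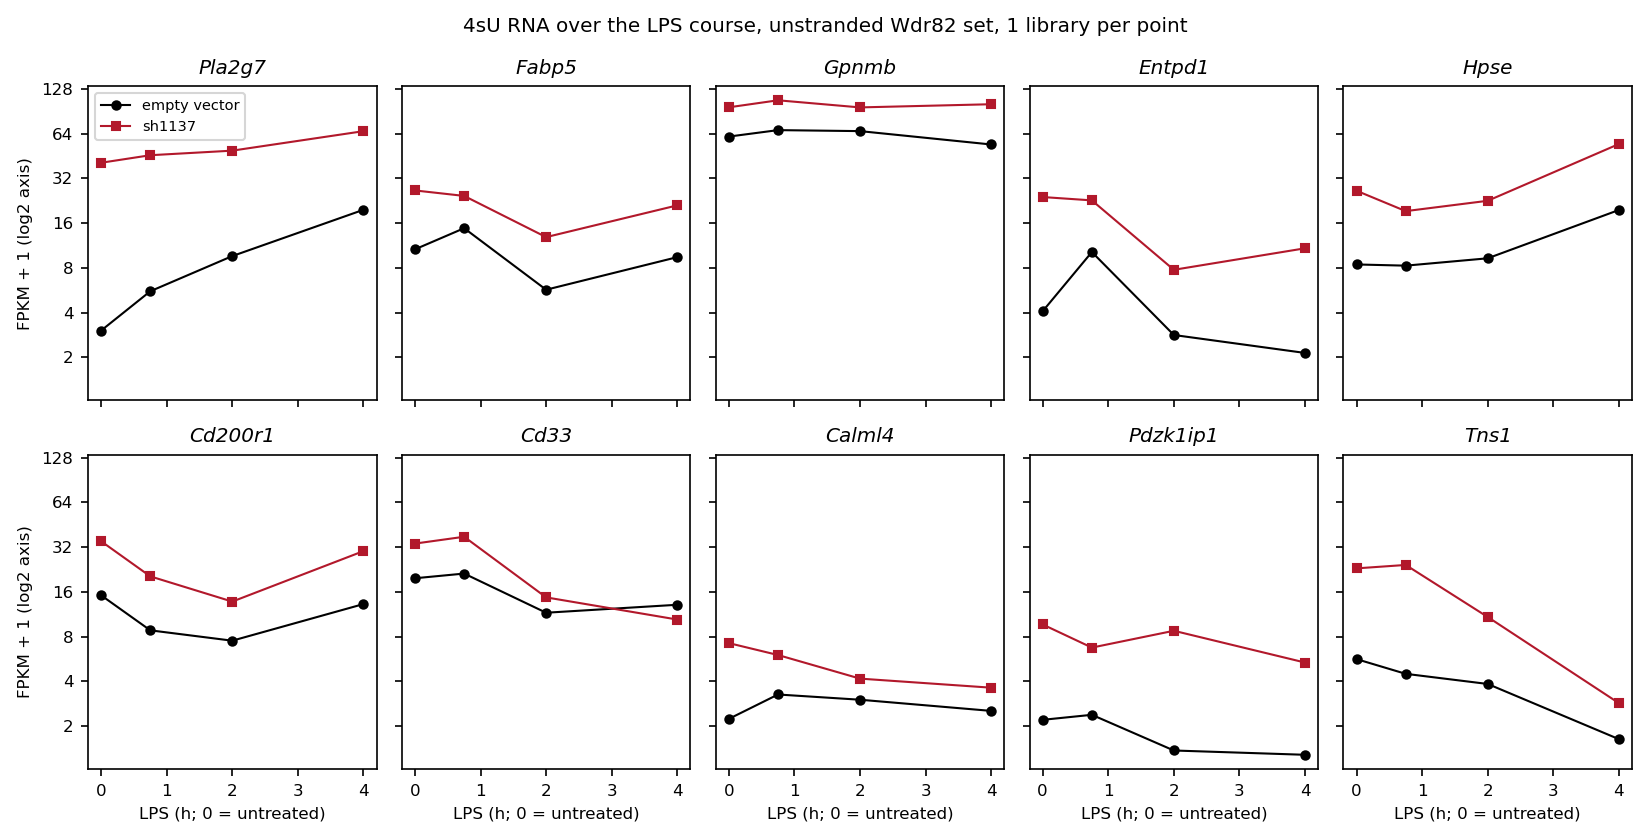
FPKM + 1 on a shared log2 axis against hours of LPS (0 is untreated) for the 10 genes in the unstranded Wdr82 set of 4sU RNA, with black circles for the empty vector and red squares for sh1137, 1 library per point. Pla2g7 climbs from 2.03 to 18.7 in controls, Tns1 drops from 4.64 to 0.635, and the red line lies below the black one for Cd33 at 4 h alone.

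In control cells the genes at least 2-fold higher than untreated were Pla2g7 at 2 h (1 of 10, all genes 11.2%) and Pla2g7 and Hpse at 4 h (2 of 10, 19.9%), and in polyA RNA Pla2g7 (1 of 10, 18.6%). Those at least 2-fold lower were Cd200r1 at 2 h (1 of 10, 6.67%), Tns1 at 4 h (1 of 10, 10.8%), and Entpd1 and Tns1 in polyA RNA (2 of 10, 8.58%). With sh1137, 5 of 10 were lower at 2 h (7.98%), namely Fabp5, Entpd1, Cd200r1, Cd33 and Tns1, and none was higher (12.8%). At 4 h Hpse was higher (1 of 10, 20.7%) and Entpd1, Cd33 and Tns1 were lower (3 of 10, 11.1%), and in polyA RNA Tns1 was lower (1 of 10, 5.85%) and none higher (15.9%). At 1 h in the stranded set none of the genes tested reached 2-fold in either direction, where all genes gave 3.81% higher and 2.97% lower in controls and 4.08 and 3.83% with sh1137. The median of all genes shifted by up to 0.19 in the 4 h comparisons, above the 0.1 at which such shifts are stated.

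The LPS ratio with the hairpin minus that in the control was below 0 in 47 of 70 combinations of gene and time. The share of all genes below 0 was not counted, so this count and those per gene have no background. The median of all genes lay between -0.0636 and 0.0632 at these times. Fabp5 was below 0 in 7 of 7, with a median of -0.30 (-1.07 to -0.08), Entpd1 in 6 of 7 and Pla2g7 in 5 of 7, with a lowest value of -1.99. The median over the 10 genes was lowest at 45 min in the unstranded set, at -0.51, where the median of all genes was 0.015. It was 0.20 in polyA RNA, where 3 of 10 genes were below 0. Since this quantity holds the untreated hairpin ratio that chose the genes with the opposite sign, it has no test.

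DRB was given to LPS-treated cells of 1 set, with 1 library per condition. In the scrambled control 3 of 9 tested genes were at least 2-fold higher with DRB (all genes 16.4%) and none was lower (15.7%). Entpd1 went from 1.00 to 3.65, Hpse from 5.32 to 12.6 and Pdzk1ip1 from 3.14 to 7.32. With sh1137, 5 of 10 were higher (13.4%) and none lower (15.4%). Pla2g7 went from 19.0 to 39.9, Gpnmb from 89.3 to 187, Entpd1 from 4.74 to 16.1, Hpse from 11.9 to 30.4 and Calml4 from 1.96 to 5.50. Wdr82 itself went from 28.5 to 10.8 in the control and from 16.3 to 2.12 with sh1137. The median of all genes was shifted by 0.16 and 0.18, and relative to that shift 3 of the 8 calls stayed at 2-fold, Entpd1 with both vectors and Hpse with sh1137. The hairpin ratio was above 0 for 10 of 10 genes both without and with DRB.

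**Figure D5:**
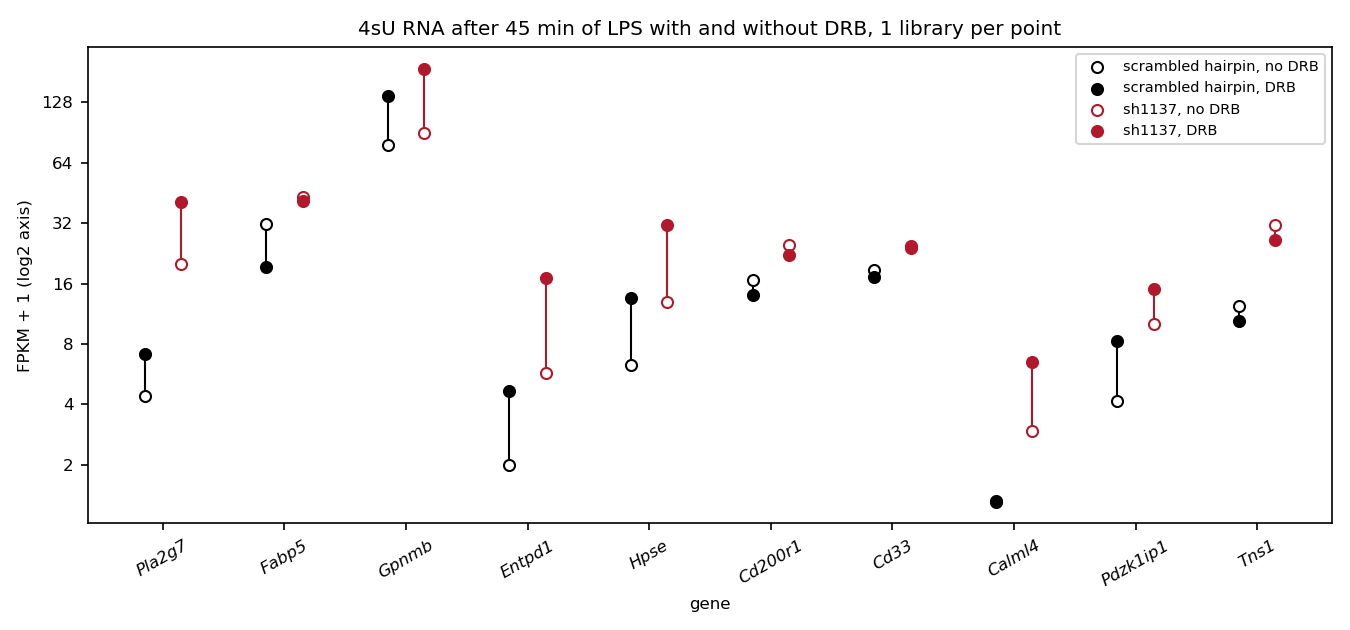
FPKM + 1 on a log2 axis for the 10 genes along the horizontal axis in 4sU RNA after 45 min of LPS, with black for the scrambled hairpin, red for sh1137, open circles without DRB and filled circles with DRB, 1 library per circle. The filled circle lies at least 2-fold above the open one for 3 genes in the control and 5 with sh1137.

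Other genes of the same pathways are described from lists, in 4sU pairs, against 5.28% of all gene-pair combinations at least 2-fold higher and 2.95% at least 2-fold lower. In the list of platelet-activating factor and phospholipase A2 enzymes 5 of 190 were higher and 5 lower. The 5 higher ones were pairs of Pla2g6, a calcium-independent phospholipase (mean ratio 0.84), while Ptafr, the receptor for platelet-activating factor, averaged -0.18 and the cytosolic phospholipase gene Pla2g4a averaged 0.46. In the list of fatty acid binding, uptake and lipid droplet genes 10 of 238 were higher and 10 lower. Fabp4, the relative of Fabp5 best known in macrophages, was higher in 3 of 12 pairs, and the scavenger receptor gene Cd36 was lower in 5 of 12 (mean -0.76). Plin2, which coats lipid droplets, averaged -0.13 and Lipa, the lysosomal acid lipase, 0.31.

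The list of the PPAR and LXR axis, nuclear receptors of lipids with their targets, held 22 of 121 combinations higher (18.2%) and 3 lower. They were the cholesterol exporters Abca1 (7 of 12 pairs, mean 1.23) and Abcg1 (8 of 12, mean 1.25) and Mylip, which promotes breakdown of the LDL receptor (7 of 12, mean 1.05). The 3 lower combinations were of Pparg (mean -0.74). In the list of lysosomal and lipid-associated macrophage genes 35 of 215 were higher (16.3%) and 3 lower, led by the cathepsin genes Ctsk (12 of 12 pairs, mean 2.11) and Ctsl (7 of 12, mean 1.02) and the proton pump subunit gene Atp6v0d2 (10 of 12, mean 2.00). Lgals3 averaged -0.04 and Trem2, the lipid-sensing receptor of such macrophages, -0.05.

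Among purine nucleotide and adenosine genes 18 of 166 combinations were higher (10.8%) and 2 lower, led by the UDP-sugar receptor gene P2ry14 (8 of 12, mean 1.15), with the ATP-gated channel gene P2rx4 higher in 3 of 12 (mean 0.76). Among inhibitory receptors 14 of 182 were higher (7.69%) and 16 lower (8.79%). Lilrb4 was lower in 7 of 12 pairs (mean -0.86) and Lair1 in 4 of 12 (mean -0.78), against means of 1.30 for Cd200r1 and 0.87 for Cd33. Relatives of Cd200r1 were higher in 3 of 7 tested pairs for Cd200r2, 3 of 3 for Cd200r3 and 3 of 9 for Cd200r4. Of the Siglec family, Siglece was higher in 3 of 10 tested pairs and Siglec1 in 0 of 9. Among heparan sulfate genes 12 of 232 were higher (5.17%) and 1 lower, led by the lysosomal sulfamidase gene Sgsh (5 of 12, mean 0.77). Among calmodulin and EF-hand genes 0 of 108 were higher, and among tensin and focal adhesion genes 0 of 163 were higher and 1 was lower.

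Markers of other cell types were also followed. Osteoclast markers, of which Ctsk, Acp5 and Atp6v0d2 also stand in the lysosomal list, were at least 2-fold higher in 27 of 58 combinations (46.6%). These were pairs of Ctsk (12 of 12), Atp6v0d2 (10 of 12) and Mmp9 (5 of 10), while Acp5 and Nfatc1 had 0 of 12 each. The summed 4sU level of the 7 osteoclast markers was 18.4 to 38.0 in controls and 32.2 to 69.1 with hairpins. Calcr and Oscar were under 1 FPKM in every library. Macrophage markers were higher in 0 of 84 and lower in 7, and their summed level was 850.5 to 2728 in controls and 613 to 2511 with hairpins. Of T cell markers Cd3e, Cd3d, Cd3g and Cd8a were under 1 FPKM in every library, whereas Lck and Cd4 were at least 2-fold higher in 5 of 9 and 6 of 7 tested pairs. The dendritic cell list gave 8 of 54 higher with a summed level of 27.3 to 146 in controls and 41.4 to 358 with hairpins, and Flt3 was under 1 in every 4sU library. Neutrophil markers gave 6 of 42 higher and 8 lower, with summed levels of 2.65 to 30.0 and 3.28 to 45.5 and with Ly6g, Elane and Cxcr2 under 1. B cell markers gave 4 of 20 higher, stroma 7 of 21, erythroid 1 of 4 and hepatocyte 0 of 1, and no mast cell and basophil marker reached 1 FPKM in a 4sU library. The part of other cells in the levels of the 10 genes was not tested, and in these bulk libraries fewer cells of a type and less RNA per cell cannot be told apart.

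The 10 genes were also compared over the libraries. They were chosen for being higher in the hairpin libraries, which are 14 of the 28, so likeness among them follows from the choice. With each table centred on its mean, Pearson's r between a gene and the mean of the other 9 over the 28 libraries was between 0.72 (Cd33) and 0.92 (Calml4). Among 8163 other genes those most alike included Ccl6 (r = 0.95), Sepp1 (0.93), Mrc1 (0.91), Serpinb6a (0.91) and Tcn2 (0.91). Ccl6 encodes a chemokine of macrophages, Sepp1 a selenium carrier, Mrc1 the mannose receptor and Tcn2 a vitamin B12 carrier. In 4sU RNA these 5 genes were above 0 in 12 of 12 pairs, with mean ratios from 0.73 for Serpinb6a to 2.00 for Ccl6. In polyA RNA Sepp1 had ratios of -1.32 and -0.97, Mrc1 -0.59 and -0.42 and Ccl6 0.01 and -0.21. The libraries share hairpins, tables and treatments, so these coefficients describe likeness over 28 points and carry no test.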

How the data were processed

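The submitters' processing notes name TopHat 1.3.1, Cufflinks 2.1.1, Cuffdiff 2.1.1 and the mm9 build. Which annotation and library scaling were used is not given in the sources used here. FPKM values, with confidence bounds and a status per gene and library, were deposited by the authors in 6 tables, per the file headers. Without counts, neither count tests nor counting intervals were possible. Titles gave the LPS times.

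From these, log2 ratios with a pseudocount of 1 FPKM were computed within tables (Python 3.11.15, pandas 2.3.3). A symbol with several entries was taken from the entry with the highest mean. Genes needed 1 FPKM in either library and status OK in both, and a call was 2-fold. The test was limma 3.58.1 (R 4.3.3) over 3 control ratios for 45 min of LPS, with an adjusted p under 0.05. For this fit a gene needed 1 FPKM in any of the libraries used. The same fit was also made over the 3 hairpin ratios, which come from 3 different hairpins. The p-values measure the spread between these sets. On simulated data built for the control comparison, limma recovered 26 of 50 genes raised 2-fold and 36 of 50 raised 3-fold. It recovered 24 of 50 lowered 2-fold and 34 of 50 lowered 3-fold, and called 4 of 13367 unchanged genes. The changed genes were drawn from those with a mean of at least 5 FPKM in untreated controls. Recovery of lower genes, such as Calml4, and of changes under 2-fold was therefore not simulated.

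The members and lists were chosen with earlier results of these data known. Genes were named by rule: the 10 members, the hairpin targets, per list up to 3 with the highest mean FPKM and up to 2 with the most 2-fold pairs, and the 6 genes most alike, of which 1 is not reported here; Pparg, Fabp4, Trem2 and Lck were among those chosen after their values were seen. The comparison of polyA with 4sU levels was added after seeing the data. Alternatives covered the pseudocount, the filter, centring, the call, the kind of control and leaving out sets.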

Additional observations from a re-analysis of the deposited data

Results flagged for a closer look

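Pla2g7, Fabp5, Gpnmb and Hpse stood out because the hairpin libraries were higher than their controls in each of the 12 4sU pairs and lower in both polyA pairs. The mean log2 ratio in polyA RNA was -0.55 for Pla2g7, against 2.64 in 4sU RNA (1.70 to 3.75). It was -0.49 for Fabp5, against 1.06 (0.43 to 1.55). It was -0.17 for Gpnmb, against 0.84 (0.20 to 1.36). It was -0.18 for Hpse, against 1.54 (1.03 to 2.09). The median of all genes in the polyA pairs was -0.05 and -0.10, and relative to it Gpnmb was at -0.16 and -0.02, Hpse at -0.21 and 0.01, and Pla2g7 at -0.01 and -0.93, so that the lower value of Gpnmb and Hpse after LPS, and of Pla2g7 in untreated cells, rests on the scaling. The difference between the 2 kinds of RNA was not tested, since the polyA set has 2 pairs at different times and its own table. The polyA and 4sU sets differ in library preparation as well as in the RNA sampled, and these cannot be told apart here.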

How the results depend on the processing

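All ratios pair libraries within a set, and the labels give no replicate numbers for a further block. Of 140 combinations of gene and pair, 90 were at least 2-fold higher; a pseudocount of 0.1, no filter, a filter at 5 FPKM, centring and a 1.5-fold call gave 85 to 108. Non-overlapping deposited bounds gave 29, scrambled controls alone 45 of 60 and the Wdr82 sets alone 57 of 100, fewer by construction in the latter 2. For 45 min of LPS, 978 genes were higher and 743 lower in controls; with a pseudocount of 0.1 these were 645 and 412 and 1 of the 10 genes was called. Leaving out 1 set gave 0 to 264 higher, 0 to 41 lower and 0 of the 10 genes, with 93 higher and 5 lower without the Set1a+Set1b set; with 2 sets 1 residual degree of freedom remains. The hairpin pairs gave 441 lower genes and 0 of the 10. Signs turned in the hairpin pairs for Fabp5 (-0.01), Entpd1 (-0.01), Hpse (-0.13), Calml4 (-0.01), Pdzk1ip1 (-0.42) and Tns1 (0.07), with centring for Hpse (-0.01), and without the unstranded set for Tns1 (0.10); the cause was not tested. With centring, DRB calls went from 8 to 3. At LPS times other than 45 min, 13 of 80 combinations of gene and comparison were at least 2-fold lower. These became 18 with a pseudocount of 0.1 and 16 with centring. The 5 at least 2-fold higher stayed 5 with a pseudocount of 0.1 and became 4 with centring. Of 50 recomputed gene means, 48 moved by less than 1 SD, and 1 changed sign, Entpd1 in polyA RNA with centring (-0.03 to 0.05). Over all genes, 2-fold higher calls summed over 14 pairs went from 9180 to 14540 with a pseudocount of 0.1, 5364 with a filter at 5 FPKM, 22359 at 1.5-fold and 1316 with bounds that did not overlap. Unknown depth leaves the precision of single values open, above all for Calml4 and Pdzk1ip1, whose controls were near 1 FPKM.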

Other observations

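The contrast between 4sU and polyA RNA was also present in genes outside the 10. Abca1, the cholesterol exporter, had ratios from 0.73 to 2.14 in the 12 4sU pairs and of -1.80 and -0.91 in polyA RNA. Sepp1 averaged 1.65 in 4sU RNA, with -1.32 and -0.97 in polyA RNA. Ctsk did not show it, at a mean of 2.11 in 4sU RNA and 2.90 and 2.77 in polyA RNA, and neither did Pla2g6, at 0.84 and then 0.80 and 1.74. Pla2g4a, which encodes the cytosolic phospholipase that releases arachidonic acid, was above 0 in 12 of 12 4sU pairs but 2-fold in none, and was 1.79 and 0.90 in polyA RNA. The macrophage marker Csf1r was below 0 in 12 of 12 4sU pairs (-0.65 to -0.08) and at -1.51 and -1.54 in polyA RNA. These genes were picked after their values were seen, and no comparison between them was tested.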
